A study of Mus musculus with 2 samples.

Results

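The genes described here encode 36 enzymes and membrane proteins of the lysosome, the acidic organelle in which cells digest proteins, lipids and sugars. They are 9 cathepsins, 4 proteins that handle lysosomal lipids (Psap, Npc1, Npc2 and Lipa), 12 other hydrolases including legumain, 7 membrane proteins and granulins, and 4 subunits of the proton pump. A member was taken as measured with at least 20 counts in 1 section, and 35 of the 36 passed, of 12586 genes that passed among 22204 listed. Atp6v0c, which encodes a membrane subunit of the proton pump, had 3 counts (young) and 1 count (old) and is given no ratio.

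The data come from Slide-seq, which captures the RNA of a thin section on barcoded beads of known position, so that each count has a place in the tissue. There was 1 sagittal 10-µm section of a whole ovary from a 2-month-old C57BL6/J female (replicate 3, called the young section) and 1 from a female of about 14 months (replicate 1, called the old section); no genotype or treatment other than age is named. The labels say that 4 sections from 2 females per age were placed on arrays and that planes with several oocytes were chosen. With 1 library per age, the effect of age cannot be told apart from that of the animal, the plane of cutting or the library. No p-value is therefore given, and the 95% intervals cover counting error alone. They take counts as independent, and the sources used here do not say whether counts are of unique molecules.

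The young section held 5158314 counts on 21403 beads and the old section 2348768 counts on 10267 beads, with medians of 153 and 125 counts per bead. Levels are given as CPM, counts divided by the section's total and rescaled to the same size for both. The sections shared 0 bead barcodes. They differed in what they held, as shown by summed lists of ovarian cell type markers. None of these lists holds a member of the lysosome gene set described here. Other genes of the lysosome, outside that set, can be among the markers. The macrophage list stood at 767 CPM in the young and 728 CPM in the old section, the luteal list at 3386 and 6559 CPM, the granulosa list at 11036 and 2927 CPM, and the oocyte list at 3205 and 283 CPM. The periovulatory list, genes induced in follicles at ovulation, stood at 29.9 and 1611 CPM. Of the 9 luteal markers, all measured, 4 were at least 1.5-fold higher and 1 was lower in the old section. Their median ratio was 1.44, with a range from 0.525 to 12.7, so the luteal sum does not describe each marker. All 15 macrophage markers were measured, 1 at least 1.5-fold higher and 3 lower in the old section, and over quadrants their sum ran from 542 to 1415 CPM (young) and from 655 to 861 CPM (old). The part of these differences in the lysosome genes' ratios was not tested across whole sections, and in such sums more cells of a type cannot be told apart from more RNA per cell.

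Lysosomal enzymes are made in the endoplasmic reticulum, tagged and sorted to the lysosome, and become active in the acid set up by the proton pump, while heavily glycosylated membrane proteins shield the organelle from its own enzymes. In the ovary the system is at work where macrophages clear dying follicle cells and regressing corpora lutea, where luteal cells draw cholesterol from lipoproteins for steroid synthesis, and where follicle walls are remodelled at ovulation. Many lysosomal genes share an E-box in their promoters that is bound by TFEB and its relatives, the transcription factors that raise lysosomal gene expression together.

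That shared sequence was looked for as CACGTG in the 300-base promoter windows of a RefSeq table for the GRCm38.p6 assembly, each of which runs from 250 before to 50 after 1 of a gene's annotated starts. The letters read the same on both strands. Of the 39 windows of lysosome genes, 24 were placed on the outer end of the gene's RefSeq span, and the others, such as that of Ctsl, 252 bases inside it, on a start within the span. Promoters were given for 32 of the 36 genes, and 10 of the 32 (31.3%) held at least 1 match, against 8.09% of all 27025 genes with a promoter and 11.8% of the measured ones. The longer TCACGTG, which contains CACGTG and was looked for on both strands, was found in 9 of the 32 (28.1%), against 4.29% of all genes and 7.16% of the measured ones. The genes with CACGTG in any window were Ctsa, Ctsd, Ctsl, Gla, Glb1, Lgmn, Lamp1, Mcoln1, Atp6v0d1 and Atp6v1a. For Ctsa and Lgmn the match lay only in a window 901 and 636 bases inside the span, and the window at the outer end held none. For Ctsl and Atp6v1a the only window lay 252 and 443 bases inside the span. A match is a description of letters and not evidence of a bound factor.

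These promoters are shown because Lamp1 and Ctsd carry several matches, Ctsl carries 1, and Psap and Gpnmb, which had the 2 highest ratios of old to young among the 35 measured genes, carry none in this window. Capitals mark CACGTG, and each sequence runs 5′ to 3′ on the gene's strand. The Lamp1 promoter lies at chr8:13158911-13159210 on the plus strand, that of Ctsd at chr7:142387778-142388077 on the minus strand, that of Ctsl at chr13:64370471-64370770 on the minus strand, the upstream one of the 2 Psap promoters at chr10:60277378-60277677 on the plus strand, and that of Gpnmb at chr6:49036268-49036567 on the plus strand.
Lamp1: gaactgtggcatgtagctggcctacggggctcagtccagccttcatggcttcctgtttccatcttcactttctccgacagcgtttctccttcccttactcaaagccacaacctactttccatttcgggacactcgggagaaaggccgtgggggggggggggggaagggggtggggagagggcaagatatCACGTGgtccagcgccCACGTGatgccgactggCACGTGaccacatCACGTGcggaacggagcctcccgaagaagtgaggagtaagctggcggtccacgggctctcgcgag
Ctsd: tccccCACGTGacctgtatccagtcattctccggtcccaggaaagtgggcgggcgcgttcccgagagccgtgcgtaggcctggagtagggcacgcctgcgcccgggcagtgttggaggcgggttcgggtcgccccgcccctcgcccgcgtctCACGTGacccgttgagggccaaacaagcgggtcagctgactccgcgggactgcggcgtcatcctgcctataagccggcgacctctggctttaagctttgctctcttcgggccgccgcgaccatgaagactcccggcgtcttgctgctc
Ctsl: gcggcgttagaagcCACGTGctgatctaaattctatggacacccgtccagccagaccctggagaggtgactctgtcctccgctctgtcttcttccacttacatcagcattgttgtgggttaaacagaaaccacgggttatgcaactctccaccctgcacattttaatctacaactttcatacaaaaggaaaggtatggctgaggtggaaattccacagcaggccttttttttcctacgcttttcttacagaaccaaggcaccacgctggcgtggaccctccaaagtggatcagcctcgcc
Psap: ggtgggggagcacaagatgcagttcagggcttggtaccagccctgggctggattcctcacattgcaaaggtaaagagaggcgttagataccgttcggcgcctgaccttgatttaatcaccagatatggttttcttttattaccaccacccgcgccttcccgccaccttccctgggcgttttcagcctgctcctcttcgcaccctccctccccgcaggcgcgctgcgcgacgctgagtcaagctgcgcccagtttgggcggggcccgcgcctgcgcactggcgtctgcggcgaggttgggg
Gpnmb: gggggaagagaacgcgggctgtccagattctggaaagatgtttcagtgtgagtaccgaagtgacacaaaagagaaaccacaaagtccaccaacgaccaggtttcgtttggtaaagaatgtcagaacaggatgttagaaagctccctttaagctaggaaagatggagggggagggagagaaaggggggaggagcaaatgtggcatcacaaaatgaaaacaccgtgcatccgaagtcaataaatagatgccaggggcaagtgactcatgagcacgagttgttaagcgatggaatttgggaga

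Summed over all 36 genes, lysosome counts were 25199 of the young and 20139 of the old section's total, or 4885 and 8574 CPM, an old/young ratio of 1.76 (95% counting interval 1.72 to 1.79). Of the 35 measured genes, 14 were at least 1.5-fold higher in the old section, where 22.6% of all measured genes were, and 2 were at least 1.5-fold lower, where 25.4% of all measured genes were. The median ratio of the 35 genes was 1.44, beside 0.988 for all measured genes. The ratio was above 1 for 29 genes, where it was for 49.1% of all measured genes. The counting interval lay wholly above 1 for 25, where it did for 30.3% of all, and wholly below 1 for 3, where it did for 29.9%. Ctsl and Psap carried much of the sum: their shares of lysosome counts were 11.8% and 5.88% in the younger and 20.8% and 12.3% in the older ovary, and without both the summed ratio was 1.43 (1.40 to 1.46).

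**Figure D1:**
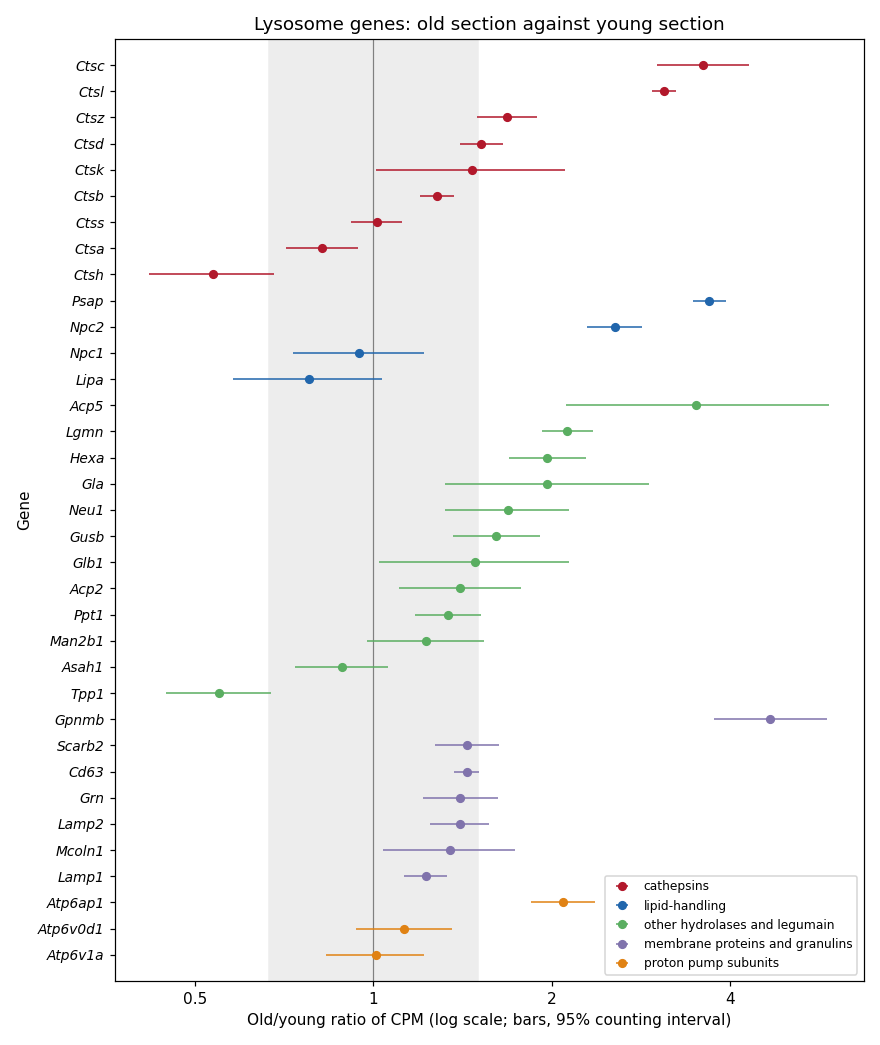
Old/young ratio of CPM for each of the 35 measured lysosome genes, on a log scale, coloured by role and ordered by ratio within a role, with 95% counting intervals as bars; each section is 1 library. The grey band runs between 1.5-fold lower and 1.5-fold higher, with 14 genes to its right, led by Gpnmb at 4.68, and 2, Ctsh and Tpp1, to its left.

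Among the 9 cathepsins, the main lysosomal proteases, 4 were at least 1.5-fold higher in the old section and 1 was lower, and their sum went from 1940 to 3549 CPM, a ratio of 1.83 (1.78 to 1.88). Cathepsin L (Ctsl, chr13:64361890-64370772), a cysteine endopeptidase that is also induced in granulosa cells before ovulation, stood at 575 CPM in the young and 1779.7 CPM in the old section, a ratio of 3.09 (2.95 to 3.24). Cathepsin C (Ctsc, chr7:88278024-88315861), which activates the granule proteases of immune cells, stood at 38.6 and 139 CPM, a ratio of 3.60 (3.01 to 4.31). Cathepsin Z (Ctsz), a carboxypeptidase, stood at 128 and 216 CPM, a ratio of 1.68. For cathepsin D (Ctsd), the main aspartic protease of the lysosome, the levels were 262 and 398 CPM, a ratio of 1.52 (1.40 to 1.65). Its ratio lay close to the 1.5-fold line, and ranged from 1.33 to 1.68 over the alternatives.

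Of the other 5 cathepsins, 4 differed by less than 1.5-fold between the sections and 1, Ctsh, was lower in the old one. Ctsk, the collagen-cutting cathepsin of osteoclasts, had a ratio of 1.46 on 78 and 52 counts, and Ctsb, a broadly expressed cysteine protease, 1.28 (1.20 to 1.37) with 461 and 589.7 CPM. Cathepsin S (Ctss), the cathepsin of antigen-presenting cells, was at 248 CPM in the young and 251 CPM in the old section, a ratio of 1.01 (0.916 to 1.12). Ctsa, a carboxypeptidase that also stabilises Neu1 and Glb1 in a complex, was at 143 and 117 CPM, a ratio of 0.819 (0.711 to 0.943). Ctsh, an aminopeptidase, was the lowest of all 35, at 69.2 and 37.0 CPM, a ratio of 0.535 (0.418 to 0.678). The sum thus rested on Ctsl, whose share of cathepsin counts was 29.7% (young) and 50.2% (old); without it the cathepsins' ratio was 1.30.

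The 4 lipid-handling genes split into 2 pairs. Prosaposin (Psap, chr10:60277628-60302600), the precursor of the saposins that present sphingolipids to their hydrolases, stood at 287 CPM in the young and 1059 CPM in the old section, a ratio of 3.69 (3.46 to 3.94). Npc2, the soluble carrier that takes up cholesterol inside the lysosome, stood at 128 and 326 CPM, a ratio of 2.55 (2.30 to 2.84). Npc1, the membrane protein to which Npc2 hands cholesterol, was at 40.5 and 38.3 CPM, a ratio of 0.946 (0.730 to 1.22), and Lipa, the acid lipase that frees cholesterol from its esters, at 36.6 and 28.5 CPM, a ratio of 0.779 (0.580 to 1.03). The counting intervals of Npc1 and Lipa include 1. The 4 together went from 492 to 1451 CPM, a ratio of 2.95 (2.80 to 3.11), and without Psap, which held 58.4% and 73.0% of these counts, the ratio was 1.92 (1.75 to 2.10).

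Set against each other, the section held 3.94 cathepsin counts per lipid-handling count in the young and 2.45 in the old ovary, and the old/young ratio of this quotient was 0.620 (0.584 to 0.658). The difference depended on single genes. Without Psap the quotient was 9.47 and 9.04, a ratio of 0.954 (0.869 to 1.05) whose interval includes 1. Without Ctsl it was 0.439 (0.412 to 0.469), and without both 0.676 (0.613 to 0.746). The lipid-handling genes as a group were thus higher relative to the cathepsins in 3 of these 4 versions, and in the version without Psap the groups differed by less than the counting error.

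The 12 other hydrolases summed to 733 CPM in the young and 1084 CPM in the old section, a ratio of 1.48 (1.41 to 1.56), with 6 at least 1.5-fold higher and 1 lower. Legumain (Lgmn), the asparagine-specific protease that processes cathepsins, was at 155 and 329 CPM, a ratio of 2.12 (1.92 to 2.35). Tartrate-resistant acid phosphatase (Acp5), a marker enzyme of osteoclasts and activated macrophages, had 27 and 43 counts, 5.23 and 18.3 CPM, a ratio of 3.50 (2.11 to 5.89) that was 5.72 with equal weight per bin. Of 6 marker genes of osteoclasts and giant cells, Itgb3 alone was measured (437 and 652 counts), Dcstamp and Calcr had 0 counts in both sections, and the other 3 had at most 6 counts. Of the glycosidases, Hexa stood at 74.2 and 146 CPM (ratio 1.97), Gla at 11.1 and 21.7 CPM (1.97) and Gusb at 64.2 and 103 CPM (1.61). These 3 cut terminal sugars from gangliosides, globosides and glycosaminoglycans. The sialidase Neu1 was at 31.6 and 53.2 CPM (1.68).

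Smaller ratios were found for Glb1, the beta-galactosidase assayed as a marker of senescent cells, at 14.9 and 22.1 CPM (1.48, interval 1.02 to 2.14), for the acid phosphatase Acp2 at 36.4 and 51.1 CPM (1.40), and for the thioesterase Ppt1 at 122 and 163 CPM (1.34). The counting interval included 1 for the mannosidase Man2b1, at 43.0 and 52.8 CPM (1.23, 0.977 to 1.54), and for the ceramidase Asah1, at 82.2 and 72.8 CPM (0.886, 0.737 to 1.06). The peptidase Tpp1, which removes tripeptides from protein ends, was lower, at 93.8 and 51.5 CPM, a ratio of 0.549 (0.446 to 0.671).

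The 7 membrane proteins and granulins were each above 1 with the whole counting interval, and 1 passed 1.5-fold. Gpnmb (chr6:49036518-49058182), a transmembrane glycoprotein abundant in lipid-laden macrophages, stood at 24.0 CPM in the young and 112 CPM in the old section, the highest ratio of the 35 genes at 4.68 (3.76 to 5.84). The other 6 lay in a narrow range from 1.23 to 1.44. They were Lamp1, the main glycoprotein of the lysosomal membrane, at 307 and 376 CPM (1.23), its relative Lamp2 at 149 and 209 CPM (1.40), the tetraspanin Cd63 at 750.4 and 1078 CPM (1.44), Scarb2, which carries glucocerebrosidase to the lysosome, at 126 and 181 CPM (1.44), the calcium channel Mcoln1 at 32.0 and 43.0 CPM (1.34), and progranulin (Grn) at 94.4 and 132 CPM (1.40). Of the 3 measured proton pump subunits, the accessory subunit Atp6ap1 was at 102 and 214 CPM (2.09, 1.85 to 2.37), while Atp6v0d1 at 66.5 and 74.9 CPM (1.13) and the catalytic subunit Atp6v1a at 68.8 and 69.4 CPM (1.01) had intervals that include 1.

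Genes with and without the promoter letters had similar ratios as groups. The 10 genes with CACGTG in any window had a median old/young ratio of 1.41, with a range from 0.819 to 3.09. The 21 measured genes with a promoter and no CACGTG had a median of 1.46, with a range from 0.549 to 4.68. The range of the first group lies within that of the second.

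Each section was then divided into 4 quadrants at the median bead position, which gives the spread within a library and not between animals. All 4 old quadrants lay above all 4 young ones for 19 of the 35 genes, where 16.6% of all measured genes did so, and below them for 1, Tpp1, where 18.5% of all measured genes did so. Ctsl was at 574, 650.0, 623 and 378 CPM in the young quadrants and at 2013, 1020.4, 2551 and 925 CPM in the old ones. Psap was at 287, 276, 314 and 285 CPM in the young and at 1319.7, 725, 1362 and 568 CPM in the old quadrants. Quadrants are listed as low x and low y, low x and high y, high x and low y, then high x and high y. Psap was even across the young section, with a highest quadrant 1.14 times the lowest, and Ctsl was low in 1 young quadrant. In the old section both were highest in the 2 quadrants of low y, and the highest quadrant was 2.76 times the lowest for Ctsl and 2.40 times for Psap.

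Npc2, Ctsc, Lgmn and Gpnmb did not overlap between the sections either. Npc2 ran from 108 to 156 CPM over the young and from 260.5 to 457 CPM over the old quadrants, and its highest old quadrant was the one of low x and high y. Gpnmb ran from 16.3 to 49.2 CPM in the young and from 72.1 to 154 CPM in the old section. Ctss overlapped fully, with 179 to 418 CPM in the young and 215 to 282 CPM in the old quadrants. Its highest value was the young quadrant of high x and high y, where the macrophage list was highest too, at 1415 CPM against 542 CPM in the lowest young quadrant. Ctsh overlapped, with 52.1 to 78.7 CPM in the young and 17.2 to 59.5 CPM in the old section. Tpp1 ran from 88.6 to 98.8 CPM in the young and from 22.3 to 75.6 CPM in the old section.

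**Figure D2:**
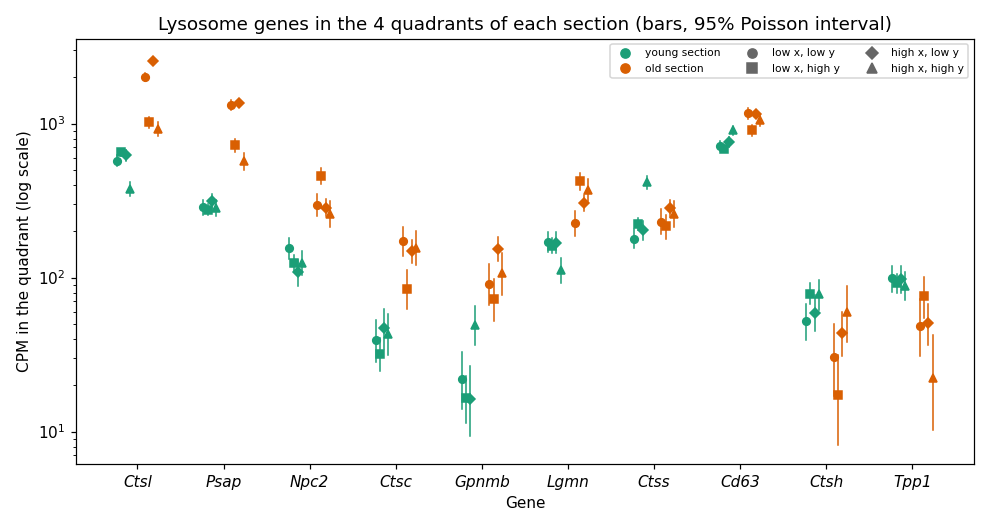
Level of 10 lysosome genes (CPM, log scale) in the 4 quadrants of each section, by colour for the section and by symbol for the quadrant, with exact Poisson 95% intervals as bars. The old points of Ctsl, Psap, Npc2, Ctsc, Gpnmb, Lgmn and Cd63 lie above all young points, those of Tpp1 lie below, and those of Ctss and Ctsh overlap with the young ones.

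To place the genes in the tissue, beads were pooled into squares 5 bead spacings wide, and squares under 500 counts were dropped, which left 1338 bins of the young and 908 of the old section. For each marker list, the 20% of bins with the highest share of that list's counts (268 and 182 bins) was set against the other bins of the same section. Such a bin holds several cells of different types and is called rich in a list, not a cell type, and a macrophage-rich bin can hold as little as 1 macrophage count. Macrophage-rich bins held 3010 CPM of the macrophage list against 349 CPM in the other bins of the young section, and 3352 against 339 CPM in the old one. They were shallower than the rest, with medians of 2540 against 3257 counts per bin (young) and 1523 against 2281 (old).

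In macrophage-rich bins the cathepsins were higher in both sections, at 3633 against 1621 CPM in the young (ratio 2.24, 2.15 to 2.34) and 5252 against 3302 CPM in the old section (1.59, 1.50 to 1.68). The sum of the lipid-handling genes differed in direction. It stood at 883 against 417 CPM in the young (2.12, 1.94 to 2.31) and 1284 against 1485 CPM in the old section (0.864, 0.775 to 0.962). With the top 10% of bins in place of the top 20%, this last ratio was 1.00. The single genes did not all share the direction of the old sum. Psap was at 0.764 (0.668 to 0.871) and Npc2 at 0.940 (0.746 to 1.17) in the old section. Npc1 was at 2.01 (1.16 to 3.36) and Lipa at 2.87 (1.61 to 4.94) there. Of the 34 members with at least 50 counts in a section, 17 were at least 1.5-fold higher in macrophage-rich bins of the young section, where 8.96% of all genes were, and 17 in the old one, where 10.4% of all genes were. In each section 1 member was at least 1.5-fold lower, where 17.1% (young) and 17.8% (old) of all genes were.

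Among the members with at least 50 counts, the 3 most concentrated in macrophage-rich bins of the young section were Gpnmb, at 105 against 8.85 CPM (11.9), Ctss, at 998 against 109 CPM (9.20), and Ctsc, at 98.8 against 27.5 CPM (3.60). In the old section they were Ctss, at 1176 against 111 CPM (10.6), Gpnmb, at 475 against 56.9 CPM (8.34), and Ctsd, at 926 against 319 CPM (2.90). Acp5, below that minimum, was at 6.44 (3.37 to 12.3) there on 21 and 22 counts. The ratio of Gpnmb in the old section was 5.25 when bins were ranked without Lyz2, the list's most abundant gene. Lipa was 2.21 and 2.87 times higher there in the young and old section, and Ctsb 2.48 and 2.23 times. The 3 lowest members were Glb1 (0.632 on 8 counts there), Ctsl (0.720) and Asah1 (0.728) in the young section, and Ctsl (0.538), Glb1 (0.717 on 5 counts there) and Psap (0.764) in the old section. Psap itself stood at 622 against 224 CPM in the young section, a ratio of 2.78, so its place relative to macrophage markers differed between the 2 libraries.

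Luteal-rich bins, ranked by genes of the corpus luteum such as Lhcgr, Ptgfr and Akr1c18, differed between the sections. In the young section the summed lysosome genes were 1.73 times and the lipid-handling genes 2.77 times as high as in the other bins, and 16 of 34 members were at least 1.5-fold higher, where 10.3% of all genes were, and 2 lower, where 23.4% were. Lgmn stood at 599 against 56.2 CPM there, a ratio of 10.6 (9.12 to 12.5), followed among members with at least 50 counts by Ctsc at 3.86, Psap, at 721 against 191 CPM, at 3.77, and Ctss at 3.10. Summed genes of the old section were at 0.925 there, and 7 of 34 members were at least 1.5-fold higher, where 9.36% of all genes were, with 5 lower, where 21.8% were. The highest were Lgmn, at 562 against 274 CPM (2.05), Ppt1 (2.01), Atp6v1a (2.00) and Npc2, at 504 against 281 CPM (1.79). Ctsc was at 0.340 and Psap at 0.720 of the other bins' level. Without the old quadrant of low x and high y, the ratio of Psap was 1.09 and that of Ctsc was 0.602.

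Granulosa-rich bins, ranked by follicle genes such as Amh, Fshr and Inha, held less of many lysosome genes in the young section. There 2 of 34 members were at least 1.5-fold higher, where 10.7% of all genes were, and 11 were lower, where 19.5% of all genes were. The 2 were Ctsl, at 1015 against 398 CPM (2.55, 2.37 to 2.75), and Asah1, at 108 against 71.9 CPM (1.50). With the top 10% of bins the Ctsl ratio was 1.40, the lowest of its 9 alternatives, which ran up to 2.82. Psap was at 139 against 345 CPM (0.404), Ctss at 0.161 and Lgmn at 0.170. In the old section 0 of 34 members were 1.5-fold higher in granulosa-rich bins, where 7.69% of all genes were, and 8 were lower, where 9.51% were. The highest there were Neu1 (1.44), Npc2 (1.35), and Ctsl, Asah1 and Psap (1.32 each), with intervals that include 1 for Neu1 and Asah1.

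Periovulatory-rich bins could be ranked in the old section alone, because the young section held too few counts of that list to fill the class. Ctsl stood at 3360.4 CPM there against 1008 CPM elsewhere, a ratio of 3.33 (3.13 to 3.55), and Psap at 1945 against 632 CPM, a ratio of 3.08 (2.84 to 3.34). With Gla (1.52 on 51 counts), these were 3 of 34 members at least 1.5-fold higher, where 12.9% of all genes were, and 12 were lower, where 20.3% of all genes were. Members high in macrophage-rich bins were among the lowest, with Ctss at 36.6 against 354 CPM (0.103) and Gpnmb at 26.2 against 153 CPM (0.171). When bins were ranked without Adamts1, the list's most abundant gene, the ratio of Ctsl was 2.05 and that of Psap was 1.84. Over the 9 alternatives Ctss ranged from 0.0564 to 0.402 and Gpnmb from 0.0728 to 0.573, the highest of each without the old quadrant of high x and low y. Over the same bins Ctsl and Psap varied together in the old section (Pearson r = 0.46 over 908 bins, which share a library and differ in depth) and not in the young one (r = -0.03 over 1338 bins).

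**Figure D3:**
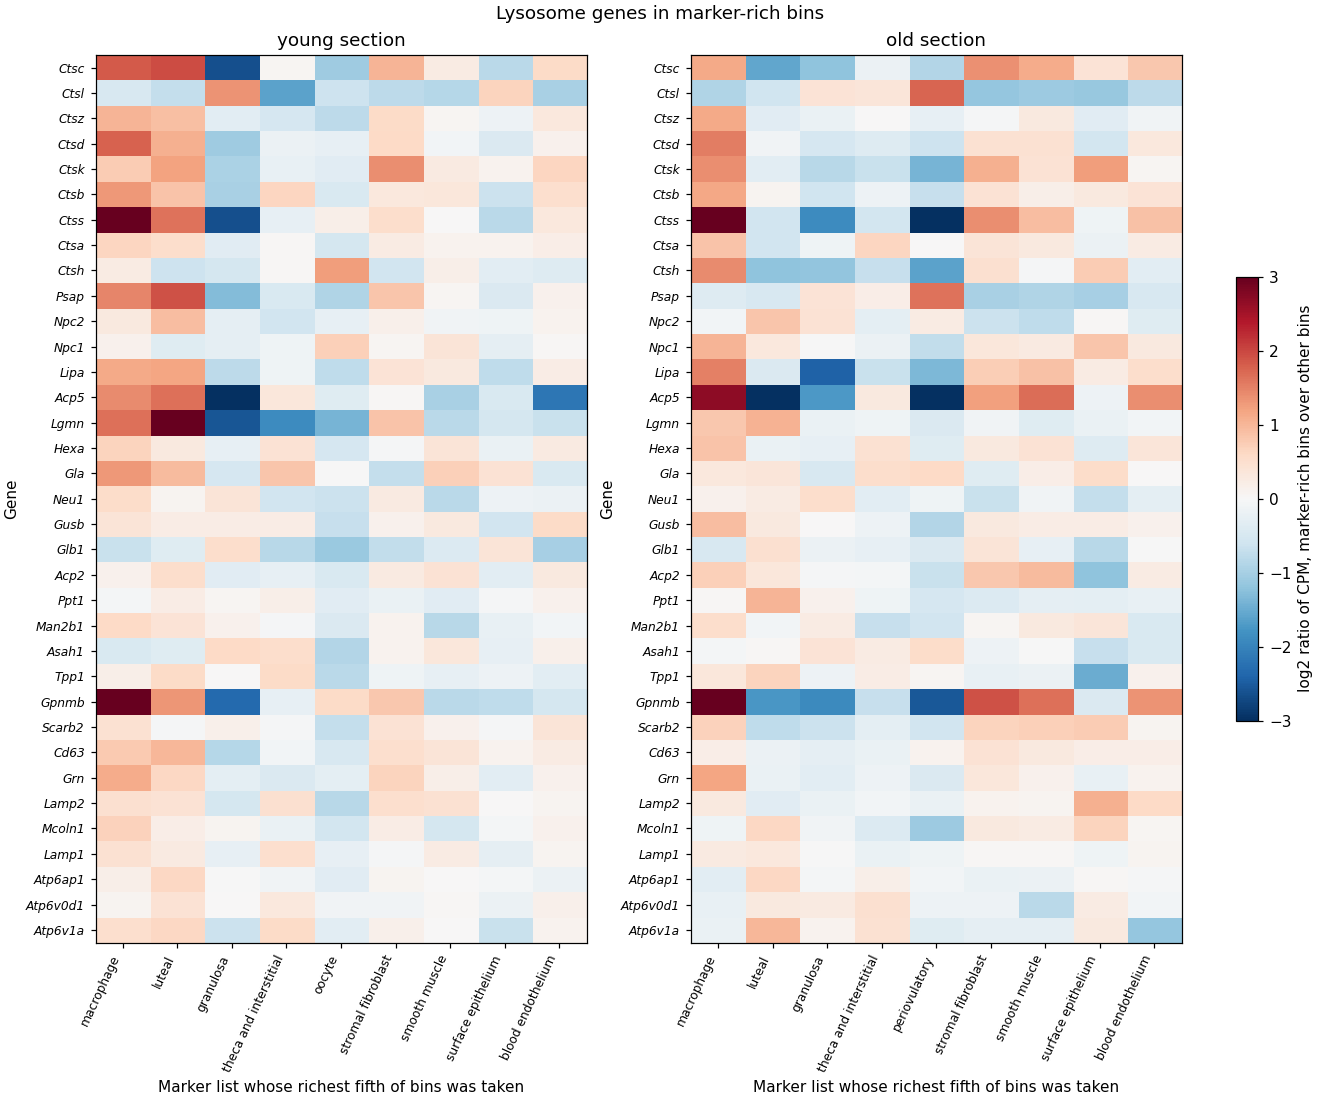
Log2 ratio of CPM between bins rich in a marker list and the other bins of the same section, for the 35 measured lysosome genes (rows, by role) and the marker lists that could be ranked in that section (columns); the colour scale ends at 3 and -3. Ctss and Gpnmb are high in the macrophage column of both sections, Lgmn in the luteal column of the young section, and Ctsl and Psap in the periovulatory column, which the old section alone has.

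Near oocytes lysosome genes held a smaller share of all counts, but in the young section not fewer counts per bead. Oocyte bins, defined by 10 or more oocyte-list counts and an oocyte share of 1% or more, numbered 59 (young) and 5 (old). Within 5 spacings of these bins' centres the summed lysosome genes stood at 2922 CPM in the young section (2804 to 3044), beside 5438, 5261 and 5179 CPM at 5 to 10, 10 to 20 and over 20 spacings. Beads near oocyte bins were deeper, with means of 450.2 total counts within 5 spacings and 240.0, 246 and 207 farther out, and the lysosome counts per bead were 1.32, 1.30, 1.29 and 1.07 in the same order. The series in the old section was 4415 (3804 to 5097), 5732, 8036 and 8772 CPM, the first on 186 counts, with 1.74, 1.42, 1.70 and 2.00 lysosome counts per bead. Ctsh ran the other way in the young section, with 141 CPM (116 to 170) within 5 spacings and 60.0, 52.6 and 57.6 CPM farther out. Over the 20% of young bins richest in oocyte counts, Ctsh was at 126 against 52.9 CPM (2.38, 1.91 to 2.95) and Npc1 at 58.5 against 35.5 CPM (1.65, 1.21 to 2.22). These were the only 2 members whose counting interval there lay wholly above 1. The share of all genes with such an interval there was not counted. Of the old section, 3 Ctsh counts lay within 5 spacings of an oocyte bin, too few to place the gene.

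Between the sections, the old/young difference was not the same in every kind of bin. Inside macrophage-rich bins the summed lysosome genes stood at 8028 CPM in the young and 11343 CPM in the old section, a ratio of 1.41 (1.35 to 1.47). Gpnmb was 4.52 times and Ctsc 2.69 times as high in the old section there, beside 1.18 (1.04 to 1.34) for Ctss. Inside luteal-rich bins the summed ratio was 1.08 (1.04 to 1.13), with Ctsl at 3.35, Npc2 at 2.41 and Ctss at 0.319. Inside granulosa-rich bins it was 2.07 (1.99 to 2.15), and the lipid-handling genes stood at 310 and 1749.6 CPM, a ratio of 5.65 (5.05 to 6.32), with Psap at 9.35 (8.00 to 11.0) and Lgmn at 8.65 (6.28 to 12.1). These classes are ranks within a section and do not hold the same tissue in both. Granulosa-rich bins held 28259 CPM of the granulosa list in the young and 5914 CPM in the old section, and luteal-rich bins 12549 and 17805 CPM of the luteal list. The difference between these ratios was not tested.

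The 20 bins with the highest share of cathepsin counts were set beside the 20 with the highest share of lipid-handling counts, a comparison chosen after the maps were seen. Of each 20, 3 (15% of each list) were shared in each section, with the sets taken from 1338 bins (young) and 908 bins (old). The overlap of 2 random sets of 20 was not worked out, so the 15% stands without a background. The lipid-handling bins rest on few counts, a median of 5 (young) and 7 (old) lipid-handling counts per bin, beside 43 and 15 cathepsin counts in the cathepsin-high bins, so the overlap is open to counting error. Over all bins the shares of the 2 groups had r = 0.33 in both sections, over bins that share a library and differ in depth. The 20 cathepsin-high bins of the young section included compact patches of 7 and 6 touching bins. They held 8229 CPM of the macrophage list against 653 CPM in the other bins, and Psap at 1205 against 272 CPM. The 20 cathepsin-high bins of the old section lay in 17 separate places, with 5585 against 670.4 CPM of the macrophage list. The 20 bins highest in lipid-handling counts held 4734 against 740 CPM of the macrophage list in the young section. Ctss stood at 2959 against 230.1 CPM and Ctsb at 1213 against 456 CPM in them. They held more of the luteal list (6628 against 3370 CPM) and the stromal fibroblast list (4320 against 2441 CPM). Less was held of the granulosa (3195 against 11134 CPM), theca and interstitial (4941 against 7492 CPM) and oocyte (651 against 3243 CPM) lists. In the young cathepsin-high bins the luteal list stood at 3616 against 3388 CPM. The lipid-handling-high bins of the old section held 1193 against 720 CPM of the macrophage list, and 4240.0 against 1583 CPM of the periovulatory list.

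**Figure D4:**
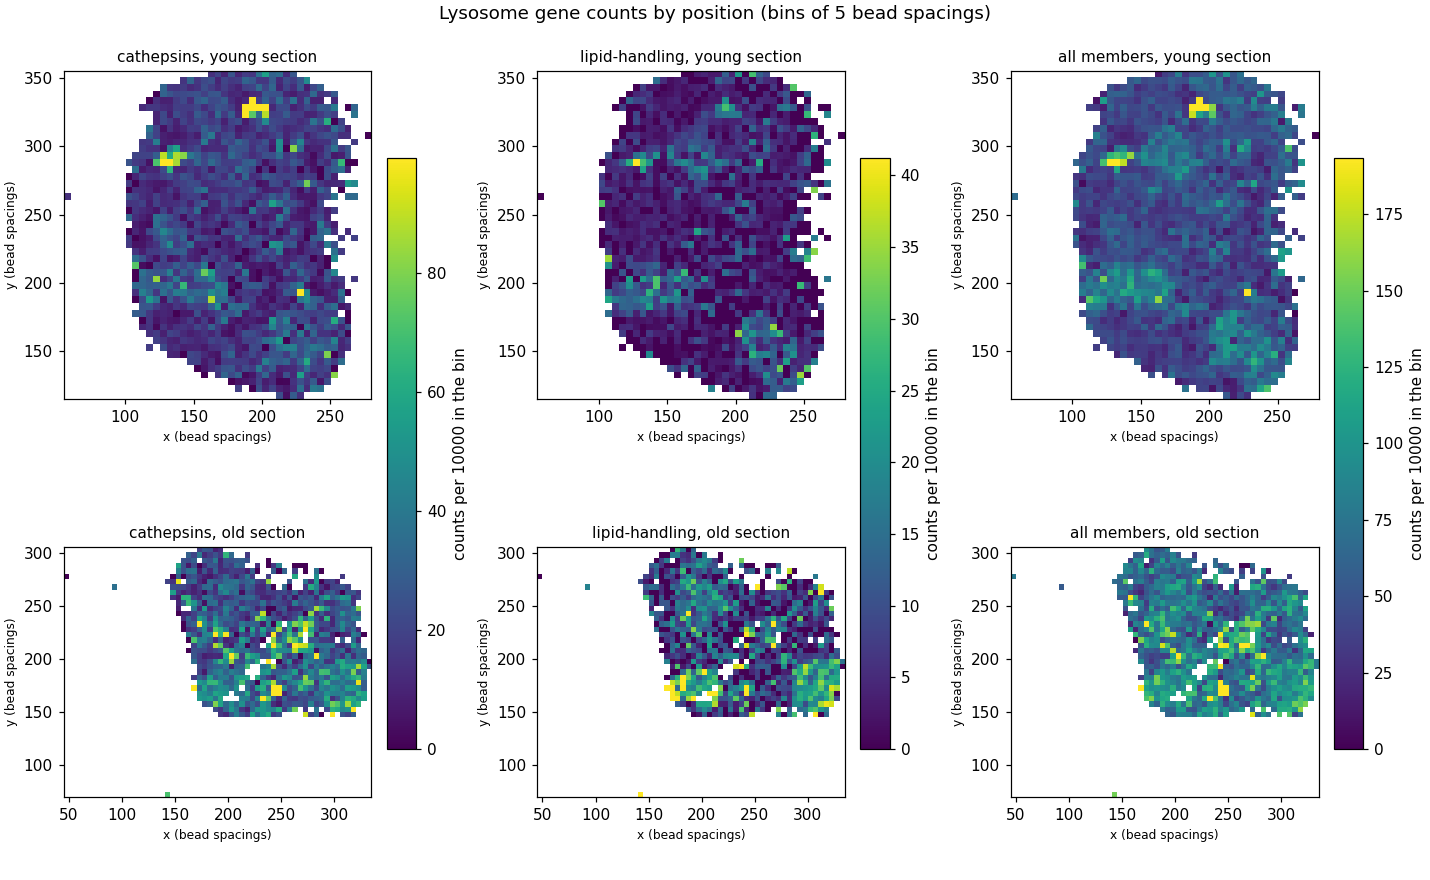
Counts of the cathepsins, the lipid-handling genes and all 36 lysosome genes per 10000 counts in each bin of the young (top) and old (bottom) section, at positions in bead spacings; bins above the end of the colour scale are drawn at its last colour. The young section has 2 compact cathepsin patches of 7 and 6 bins, and the old section holds more bins of high value, with lipid-handling counts highest in its low y part.

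Spatial clustering was described by Moran's I, which is near 0 for counts scattered at random over bins and higher where adjoining bins are alike, after each bin was thinned to 500 counts. For the summed lysosome genes it was 0.180 (young) and 0.170 (old). The cathepsins had 0.129 and 0.133, and the lipid-handling genes 0.0770 and 0.151. Of single genes, Ctss had 0.185 and 0.210, Ctsl 0.103 and 0.212, and Psap 0.0748 and 0.169. After thinning, the young and old sections held 172 and 164 counts of Ctss, 335 and 623 of Ctsl, and 220 and 385 of Psap. The values of Ctsl and Psap are thus not matched for the gene's own counts. Thinned to 300 counts, Psap had 0.0684 and 0.0791, close to each other, and Ctsl 0.0497 and 0.191. Lgmn had 0.0872 in the young section. Of the 7 membrane proteins and granulins, Gpnmb had 0.143 in the old section (0.0678 thinned to 300 counts) and -0.0135 in the young one, there on 18 counts after thinning. Cd63 had 0.0418 and 0.0140, and Grn 0.0391 and -0.00733. The other 4 lay between -0.0182 (Lamp2, old) and 0.0161 (Lamp1, young), so at this depth no clustering of them was detectable.

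Other genes of the same pathways, 113 measured in 8 lists, had a median old/young ratio of 1.20, with 36 (31.9%) at least 1.5-fold higher and 12 (10.6%) lower, beside 22.6% and 25.4% of all measured genes. The share of higher genes was below that of all genes for other proton pump subunits (14.3%) and TFE factors and mTORC1 scaffold (15.4%). It was near that of all genes for the other hydrolases (23.1%) and the cystatin family genes (1 of 4). Other lysosomal hydrolases and activators had 6 of 26 higher and 0 lower, with Arsa, a sulfatase, at 4.26 on 17 and 33 counts, and with the sphingomyelinase Smpd1 at 0.686 and the sulfatase Arsb at 0.782. Other lysosomal membrane proteins had 7 of 16 higher and 1 lower, from Tmem192 (0.646) and Laptm4b (0.819) to Laptm5 (2.35 on 29 and 31 counts) and the calcium channel Tpcn2 (3.25 on 25 and 37 counts). Other proton pump subunits had 2 of 14 higher, Atp6v1h (2.10) and Tcirg1 (1.90), and 2 lower, Atp6v1b2 (0.605) and Atp6v0e (0.657). Their sum was at 1.09 (1.05 to 1.13), beside 1.48 for the other hydrolases of the 36 genes.

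Of the sorting genes 6 of 12 were higher and 1 lower, with Gnptg, a subunit of the enzyme that makes the mannose 6-phosphate tag, at 2.29, the clathrin adaptor Ap1b1 at 2.13, Sort1 at 0.764 and the retromer subunit Vps35 at 0.604. Of 4 measured genes of the cystatin family, Cst8 stood at 96.0 and 445 CPM, a ratio of 4.64 (4.17 to 5.18). Cst12 was at 1.29, Cst3 at 1.11 and Cstb at 0.958. Whether each of them inhibits cathepsins was not tested. The TFE factors and the mTORC1 scaffold, which set the activity of TFEB, had 2 of 13 higher and 2 lower. Rragd was at 3.19, Tfeb at 1.62 on 46 and 34 counts, Mitf at 0.532 and Lamtor5 at 0.435. Autophagy genes had 6 of 17 higher and 4 lower, from Atg5 (0.529) and Atg12 (0.552) to Wipi2 (2.25) and Gabarapl1 (2.55).

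The cholesterol genes had 6 of 11 higher and 2 lower, with a median ratio of 2.02 and a summed ratio of 1.45 (1.41 to 1.49). Scarb1, the receptor that takes up cholesterol esters from high-density lipoprotein, was among the higher ones, at 257 and 801 CPM, a ratio of 3.12 (2.90 to 3.35), and was named after its values were seen. The 2 lower genes were the cholesterol exporters Abcg1, at 130.1 and 35.3 CPM (0.272, 0.214 to 0.342), and Abca1, at 115 and 62.2 CPM (0.539, 0.447 to 0.647).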

How the data were processed

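The authors deposited, for each section, a table of raw counts per gene and bead, with whole-number values by their look in the files, and a table of bead positions. The genome build was mm10, per the submitters' processing notes; the aligner and the counting step, and whether counts are of unique molecules, were not given in the sources used here, and positions carry no stated unit. Counts were summed over beads and scaled to the section total (CPM) in Python 3.11.15 with numpy 2.4.6, scipy 1.17.1 and pandas 2.3.3; plots used matplotlib 3.10.9. Ratios have exact conditional binomial (Clopper-Pearson) and levels exact Poisson 95% intervals, for counting error only. No gene was tested between ages. Bead spacing, the median distance to the nearest bead with counts, was 13.8 (young) and 13.9 (old) position units. The ratio and bin steps were run on simulated Poisson counts to check the code. Those counts hold no spread beyond counting error, so the run cannot show how well the intervals cover these data.

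The members and gene lists were chosen with earlier results of these data known. Per pathway list the 2 highest and 2 lowest ratios were named, except for some genes that the rule chose and that are not reported here, and by position the 3 highest and 3 lowest members with at least 50 counts in macrophage-rich bins; other members named by position were chosen after their values were seen. Alternatives were beads with at least 200 counts, other totals and scaling, equal weight per bin, other folds and count minimums, other bins, shares and thinning, and lists without their most abundant gene. Leaving out quadrants for counts of members and for bins, the alternatives for single members by position, and the quotients without Ctsl or Psap were added after seeing the data. Young periovulatory-rich, old oocyte-rich and osteoclast-rich bins were left out, because the first 2 classes include bins with 0 list counts and the last rests on 1 measured gene.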

Additional observations from a re-analysis of the deposited data

Results flagged for a closer look

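Several contrasts between bins pointed in opposite directions in the 2 sections, beyond the counting interval on each side; each section is 1 library and the difference itself was not tested. In luteal-rich against other bins, Ctsc had a ratio of 3.86 (young) and 0.340 (old), Gpnmb 2.49 and 0.299, and Acp5 3.15 and 0.0998, the last on 27 and 43 counts in all. The old ratio of Acp5 rests on 1 count in luteal-rich bins against 42 in the others (0.00247 to 0.587). In bins rich in stromal fibroblast markers, the lipid-handling genes had ratios of 1.50 (young) and 0.574 (old), and Psap 1.79 and 0.509. In bins rich in surface epithelium markers, Ctsl had ratios of 1.58 (young) and 0.452 (old), with 438 CPM of that marker list in the young and 3035 CPM in the old bins. Low old ratios were not particular to these 2 marker lists. Psap was also at 0.538 in smooth muscle-rich and 0.499 in surface epithelium-rich bins of the old section. Ctsl was at 0.447 in stromal fibroblast-rich and 0.468 in smooth muscle-rich bins there. Both were above 1 in granulosa-rich (1.32 each) and periovulatory-rich bins (Psap 3.08, Ctsl 3.33), which can be among the other bins here. The part of those bins in these ratios was not tested.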

How the results depend on the processing

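The summed old/young ratio of 1.76 was 1.82 on beads with at least 200 counts, 1.68 with trimmed-mean scaling, 1.63 with equal weight per bin and 1.58 without Ctsl. It was 1.71 without the young quadrant of low x and high y, 1.79 without that of high x and high y, 1.82 without the old quadrant of low x and high y, 1.63 without that of high x and low y and 1.82 without that of high x and high y. The cathepsins' 1.83 was 1.90, 1.76, 1.72 and 1.30 under the first 4 settings in that order, and 1.99, 1.58 and 1.92 without the same old quadrants. The lipid-handling genes' 2.95 was 3.24 on beads with at least 200 counts, 2.30 with equal weight per bin, 1.92 without Psap, 2.64 without the old quadrant of high x and low y and 3.19 without that of high x and high y. At 2-fold 8 members were higher and 0 lower. At the smaller fold tried 24 were higher, and Ctsh, Tpp1 and Lipa were lower. The shares of all genes at these folds were not counted, so these counts stand without a background. In macrophage-rich bins of the young section the cathepsins' ratio was 2.07 with bins of 8 spacings, 2.85 with the top 10% of bins and 2.12 without the quadrant of high x and high y, and that of the lipid-handling genes 2.35 with bins of 3 spacings, 2.57 with the top 10% and 2.48 without that quadrant. In the old section the cathepsins' was 1.48 with bins of 3 spacings, 1.47 with bins of 8, 1.87 with the top 10% and 1.41 without Lyz2, and the lipid-handling genes' 0.864 became 1.00 with the top 10%, so that its direction was lost. Moran's I of the summed genes was 0.104 in the young section when thinned to 300 counts and 0.108 in the old section with bins of 3 spacings thinned to 200, where that of the lipid-handling genes was 0.0203 (young) and 0.0671 (old) and that of the cathepsins 0.0798 (old). Of the 35 single ratios, Ctss lay on the other side of 1 in 6 of 12 alternatives, Atp6v1a in 5 and Npc1 in 2. The cause of these differences was not tested. No paired analysis was possible because each age has 1 section and the groups share no replicate number.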
